A study of Homo sapiens with 8 samples.

Results

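The comparison set A549 cultures labelled P3 or P4 (low P, 4 libraries) against A549 cultures labelled P15 or P17 (high P, 4 libraries), chosen by the number in the library title, and so took in all 8 RNA sequencing libraries of the series. The sources used here do not say what the number after P means. A549 is an established, aneuploid line of human lung adenocarcinoma cells that carries mutant KEAP1, grown here in F12K medium with serum. Each of 4 treatments gave 1 low P and 1 high P library: cells with an shRNA against the receptor kinase AXL (P3 and P15), cells with a control shRNA (P3 and P15), cells given 40 nM TP-0903, an AXL inhibitor (P4 and P17), and control cells (P4 and P17). Per its design text, the series looked for routes by which lung cancer cells resist TP-0903. The sources used here leave out how long the drug was given, what the control cells received and which sequences the hairpins had. The labels say only that the RNA came from biological replicates. With 1 library per treatment and P level, no condition had a replicate here. The p-values thus measure how much the difference between P levels varied among treatment pairs, not a spread between replicates of 1 condition.

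Gene levels are in CPM, that is, counts scaled to a common library size after edgeR's TMM scaling. A change is the log2 fold change of low P over high P, in a fit with a term for each treatment, so that each low P library is read against the high P library of its own treatment. A gene was called when edgeR's quasi-likelihood test gave an adjusted p under 0.05. Library totals ran from 31925904 to 44217023 expected counts in low P and from 30067011 to 36258608 in high P, and the total was higher in low P in all 4 treatment pairs. The mean transcript length of protein-coding genes, weighted by counts, was shorter in low P in all 4 pairs. It was 2831 ± 67.1 bases in low P and 2868 ± 85.0 bases in high P (mean ± SD, n = 4 each). The part of depth and length in the results was not tested. With effective lengths in the fit 575 genes were called, against 869 without them. Mitochondrial genes took 3.58% to 7.78% of counts in low P and 3.68% to 6.79% in high P. A549 and epithelial markers summed to between 20600 and 35043 CPM in low P and between 21364 and 40304 CPM in high P, without TMM scaling. Of those 14 markers, 2 that define alveolar cells, NKX2-1 and SFTPC, stayed at or under 1 CPM in every library. Of 15 blood cell markers, 3 were at 0 and 11 at or under 1 CPM in all 8 libraries (summed level 14.4 to 24.3 CPM in low P, 18.6 to 32.6 CPM in high P). Of 10 endothelial markers, 2 were at 0 and 8 at or under 1 CPM (4.35 to 14.9 CPM in low P, 4.22 to 11.5 CPM in high P). Of 10 fibroblast markers, 5 were at or under 1 CPM and none was at 0 throughout (22.6 to 118 CPM in low P, 17.7 to 58.7 CPM in high P).

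AXL, the target of both hairpin and drug, had 63.0 CPM in the low P library with AXL shRNA, 139 with control shRNA, 153 with TP-0903 and 105 in control cells. In high P libraries it had 55.4 CPM with AXL shRNA, 85.1 with control shRNA, 280 with TP-0903 and 216 in control cells. At both P levels the AXL shRNA library was thus below its control shRNA library. Across P levels AXL did not pass the test (log2 fold change -0.26, SE 0.28, adjusted p = 0.703), and low P was above high P in the 2 hairpin pairs and below it in the 2 others.

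Tumour cell lines are mixtures of subclones, and their gene expression can drift in culture. Interferon-stimulated genes and MHC class I genes are induced together by interferons through STAT factors and NLRC5. KEAP1 normally marks NRF2 for degradation, so that NRF2 targets are high in A549 cells at baseline. In bulk RNA, fewer cells that express a gene and less of its RNA per cell cannot be told apart.

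The low P libraries differed from the high P libraries in 3 main ways. Genes all along chromosome 2 were modestly higher in low P. Some genes of the interferon response and of MHC class I antigen presentation were lower in low P. Single genes differed by much more, with the detoxifying esterase CES1 among the highest in low P and the secreted or surface proteins SPINK6, CEACAM5 and NPNT among the lowest.

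Of 17676 genes tested, 869 were called (4.92%), 473 higher in low P (2.68%) and 396 lower (2.24%), and 3278 had an unadjusted p under 0.05. Of the 869, 866 moved in the same direction in all 4 treatment pairs, and 271 changed by more than 2-fold, 79 higher and 192 lower. Over all tested genes, 13.2% were higher and 13.7% were lower in all 4 pairs, and in 1.6% and 1.3% every low P library lay above or below every high P library. Of the called genes 294 did not overlap between the groups. The calls rested on the pairing by treatment: without the treatment term 2 genes were called. The count also leaned on single treatment pairs. Leaving out 1 library takes its whole pair out of the comparison of P levels, because its partner is then alone in its treatment. The count was 689 without the AXL shRNA P15 library and 677 without AXL shRNA P3, but 113 without the control shRNA P15 library and 122 without control shRNA P3. It was 207 without TP-0903 P17 and 163 without TP-0903 P4, 264 without control P17 and 271 without control P4. In a principal component analysis, components 1 to 3 (40.7%, 23.1% and 14.2% of variance) did not part the P levels. The fourth took 11.6% and placed low P libraries at 20.7 to 33.3 and high P libraries at -35.6 to -22.0.

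Chromosome 2 held 309 of the 473 genes called higher in low P, or 65.3% of them against 6.53% of all tested genes, and 9 of the 396 called lower. Outside chromosome 2, 164 genes were called higher and 387 lower. This pattern was picked out after the values were seen. Among genes whose mean level reached 5 CPM, 291 of 751 on chromosome 2 were called higher (38.7%) and 4 lower, against 128 (1.22%) higher and 252 (2.39%) lower of the 10523 genes elsewhere. Of the 751 genes, 94.4% lay above 0. Their median log2 fold change was 0.37, with quartiles of 0.25 and 0.48, whereas genes on the other chromosomes had a median of -0.02. In the treatment pairs the chromosome 2 median was 0.40 for AXL shRNA, 0.38 for control shRNA, 0.37 for TP-0903 and 0.31 for control cells, and leaving out any 1 library kept it between 0.36 and 0.40. The count of 309 moved more, to between 25 without the control shRNA P15 library and 160 without AXL shRNA P15, with 26 without control shRNA P3, 155 without AXL shRNA P3, 46 and 31 without TP-0903 P17 and P4, and 64 and 63 without control P17 and P4. The other 22 chromosomes (X included) had medians of -0.05 to 0.10.

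**Figure D1:**
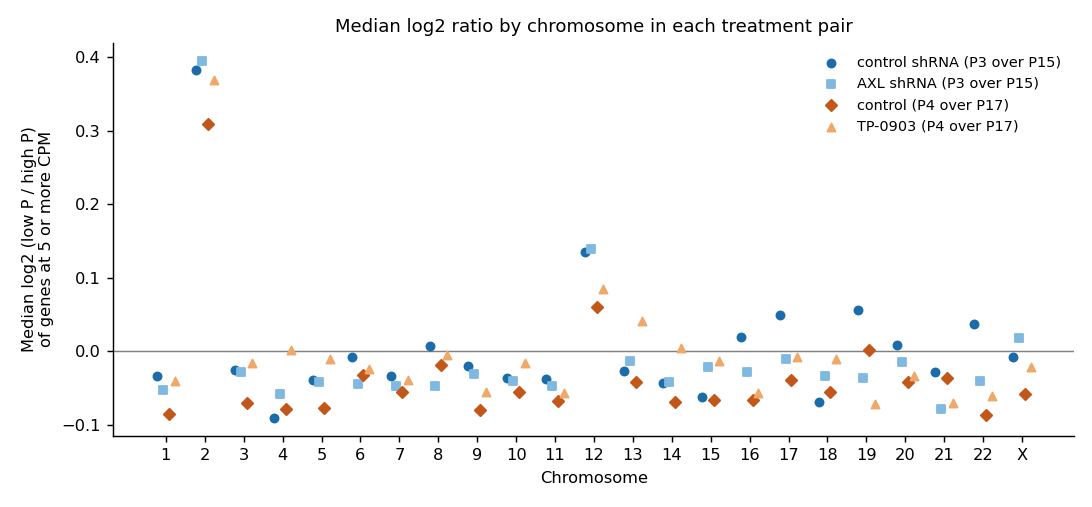
Median log2 ratio of low P over high P for genes whose mean level reached 5 CPM, by chromosome (horizontal axis), with 1 point per treatment pair. The 4 points of chromosome 2 sit between 0.31 and 0.40, and the highest value on any other chromosome is 0.14.

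The difference was present in every tested stretch of chromosome 2 and at every level of expression. All 21 stretches of 10 megabases with at least 20 such genes had a median above 0 in all 4 treatment pairs, and their medians ran from 0.25 to 0.47. Genes that start before position 93000000 in GRCh38, close to the centromere, had a median of 0.30 (312 genes, 25% called higher). Genes that start after it had a median of 0.41 (439 genes, 48.5% called higher). At 5 to 20, 20 to 100 and 100 or more CPM the chromosome 2 medians were 0.40, 0.37 and 0.35, and those of genes elsewhere were -0.02, -0.02 and -0.03. Chromosome 2 took 7.76% of non-mitochondrial counts in AXL shRNA P3, 7.68% in control shRNA P3, 7.29% in TP-0903 P4 and 7.18% in control P4. It took 5.87%, 6.01%, 5.78% and 5.88% in the matching high P libraries, so that the groups did not overlap (mean ± SD 7.48 ± 0.287% in low P and 5.88 ± 0.0976% in high P, n = 4 each). An exact two-sided sign-flip permutation test over the 4 pairs gave the smallest p that 4 pairs allow, which is above 0.05. The shift is small beside most other calls: the median log2 fold change of genes called higher was 0.49 on chromosome 2 and 0.78 elsewhere, and 24 of the 79 rises past 2-fold were on chromosome 2. These libraries measured RNA only.

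Named genes on chromosome 2 show the range. CASP8, the caspase that starts death receptor signalling, was at 67.3, 49.3, 54.3 and 47.3 CPM in low P (AXL shRNA, control shRNA, TP-0903 and control) and at 47.2, 34.3, 37.5 and 35.0 CPM in high P (log2 fold change 0.50, SE 0.07, adjusted p = 0.0115). The lowest low P library was just above the highest high P library. NDUFS1, a subunit of respiratory complex I, rose by 0.40 (SE 0.07, adjusted p = 0.0245), and RPL37A, a protein of the large ribosomal subunit, rose by 0.52 (SE 0.10, adjusted p = 0.031). ID2, an inhibitor of helix-loop-helix factors and a target of BMP signalling, rose by 0.97 (SE 0.11, adjusted p = 0.00711), and FN1, the matrix protein fibronectin, rose by 0.77 (SE 0.09, adjusted p = 0.00882). The sodium channel gene SCN9A rose by 1.51 (SE 0.13, adjusted p = 0.00366), and EPHA4, a receptor for ephrins, fell by 2.24 (SE 0.40, adjusted p = 0.026) although it lies on the same chromosome. The calls for ID2 and SCN9A held whichever library was left out. The others were lost without a library of the control shRNA pair (adjusted p up to 0.0686 for CASP8, 0.135 for RPL37A, 0.105 for NDUFS1, 0.0581 for FN1 and 0.117 for EPHA4), and all but FN1 also without a library of the TP-0903 pair (up to 0.134). RPL37A, NDUFS1 and EPHA4 were also lost without a library of the control pair, and NDUFS1 without one of the AXL shRNA pair.

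Several gene lists were called in 1 direction through chromosome 2 alone. All 4 called members of the MYC and ribosome biogenesis list (4 higher of 35 tested), all 3 of the cytosolic ribosomal proteins (3 of 75), all 3 of the nuclear respiratory chain genes (3 of 48) and all 3 called higher in the BCL2 and death receptor list (3 of 31, with 1 lower) lie on chromosome 2. The shares called higher were 11.4%, 4%, 6.25% and 9.68% in these lists, against 2.68% of all genes, so that the ribosomal protein list was near the share of all genes. Over all their tested members the medians of the ribosomal protein list (0.03) and of the respiratory chain list (-0.08) were close to that of all genes (-0.01), and the median of the MYC list was 0.11. The list medians of each pair are in the plot of gene lists.

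**Figure D2:**
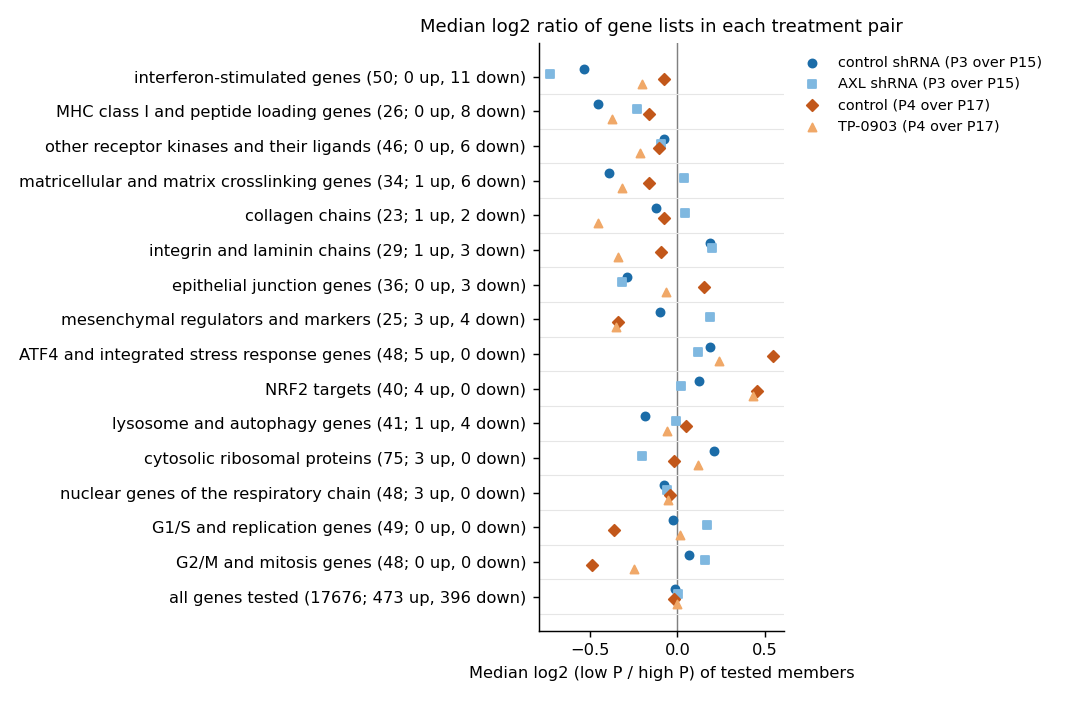
Median log2 ratio of low P over high P of 15 gene lists and of all tested genes (rows, with the number tested and the numbers called higher and lower), 1 point per treatment pair. The interferon-stimulated and MHC class I lists lie below 0 in all 4 pairs. So do the receptor kinase list (-0.08 to -0.21) and the respiratory chain list (-0.04 to -0.07). The ATF4 and NRF2 lists lie above 0 in all 4, and all genes lie within 0.03 of 0.

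Among called protein-coding genes that averaged at least 5 CPM and had all 4 pairs in the same direction, the top 3 of the 12 largest rises were those of CES1, F2RL2 and RSPO3. CES1, carboxylesterase 1, which hydrolyses ester drugs and lipids, had 81.6 CPM in AXL shRNA, 264 in control shRNA, 172 in TP-0903 and 165 in control cells in low P. In high P it had 17.3, 48.6, 18.1 and 11 CPM. Every low P library was above every high P library (log2 fold change 2.95, SE 0.27, adjusted p = 0.00494). F2RL2, a thrombin receptor of the protease-activated family, had 38.6, 42.5, 31.6 and 23.6 CPM in low P against 8.85, 7.23, 5.06 and 3.22 CPM in high P, again without overlap (2.54, SE 0.14, adjusted p = 8.30e-04). RSPO3, a secreted enhancer of WNT signalling, had 122, 101, 118 and 128 CPM in low P against 40.0, 40.7, 17 and 30.02 CPM in high P (1.94, SE 0.22, adjusted p = 0.00734). These 3 calls held with each library left out.

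The other rises among the 12 were smaller. SLCO2B1, an uptake transporter for organic anions, rose by 1.86, CACNG7, an auxiliary subunit of AMPA receptors and calcium channels, by 1.77, and SPX, which encodes the peptide hormone spexin, by 1.74. ACKR3, a scavenging receptor for the chemokine CXCL12 (on chromosome 2), rose by 1.70 and CA8, a carbonic anhydrase relative without enzyme activity, by 1.68. NR0B1, an orphan nuclear receptor, rose by 1.65, the receptor NOTCH3 by 1.57 and NPR3, which clears natriuretic peptides, by 1.47 (adjusted p of these 8 genes between 0.00734 and 0.037). CACNG7 kept its call with each library left out. NR0B1 and NPR3 lost it without a control shRNA library (adjusted p up to 0.0601 and 0.0553) and SLCO2B1 without a TP-0903 library (0.0529). SPX and ACKR3 lost it without a library of either of these pairs (up to 0.0693 and 0.0806), NOTCH3 also without one of the control pair (0.135), and CA8 without one of any pair but TP-0903 (0.148).

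**Figure D3:**
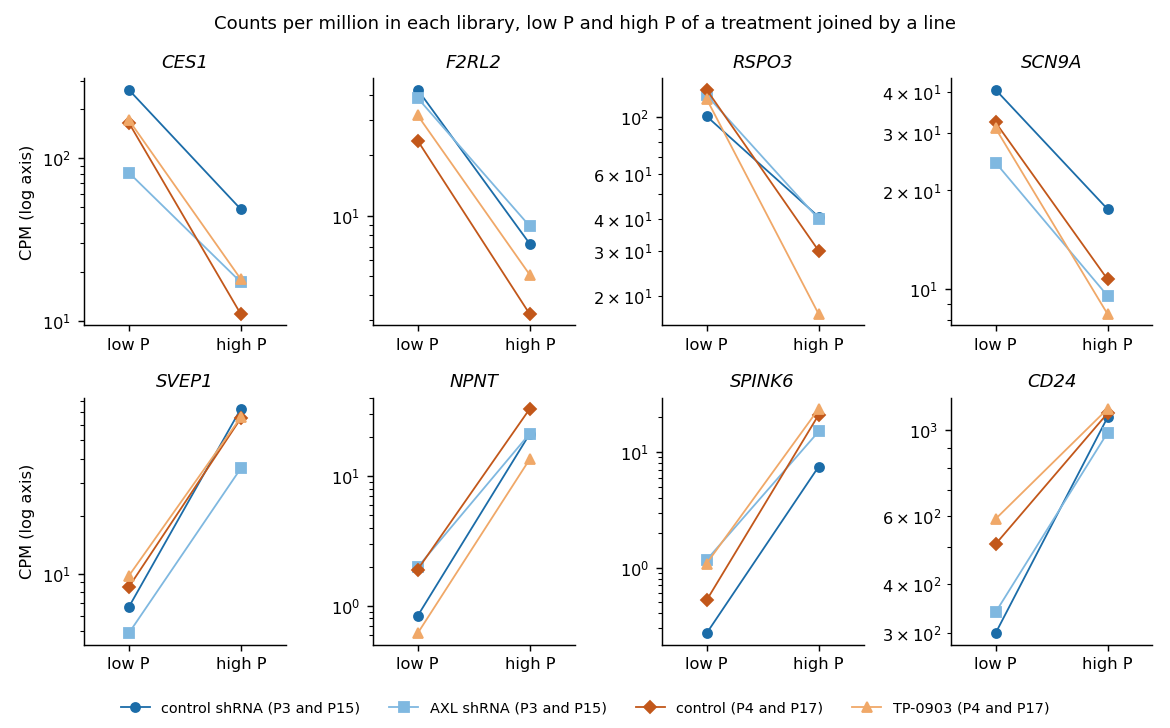
Counts scaled to a common library size (CPM, log axis) for 8 named genes in each library, low P left of high P, with a line joining both libraries of a treatment. All 4 lines run down to high P for CES1, F2RL2, RSPO3 and SCN9A and up to high P for SVEP1, NPNT, SPINK6 and CD24, and the groups do not overlap in any panel.

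By the same limits, among the 12 largest falls were those of SVEP1, NPNT, SPINK6 and CEACAM5. SVEP1, a large extracellular matrix protein, had 4.87, 6.67, 9.73 and 8.50 CPM in low P (AXL shRNA, control shRNA, TP-0903 and control) against 35.6, 73.0, 65.9 and 65.1 CPM in high P (log2 fold change -3.0, SE 0.13, adjusted p = 4.76e-04). NPNT, the matrix protein nephronectin, had 1.99, 0.838, 0.615 and 1.91 CPM in low P against 21.3, 21.2, 13.5 and 33.1 CPM in high P (-4.10, SE 0.21, adjusted p = 8.30e-04). SPINK6, an inhibitor of kallikrein proteases, had 1.16, 0.269, 1.08 and 0.520 CPM in low P against 15.1, 7.50, 23.8 and 21.1 CPM in high P (-4.49, SE 0.26, adjusted p = 0.00127). In none of these did the groups overlap, and the calls held with each library left out. CEACAM5, the carcinoembryonic antigen, had 4.80, 0.958, 0.762 and 3.22 CPM in low P against 178, 53.1, 12.4 and 16.9 CPM in high P (-4.35, SE 0.53, adjusted p = 0.00881), and its call was lost without a control shRNA library (adjusted p up to 0.0553).

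Lower on the log2 scale were also CDYL2, a chromodomain protein (-3.65), SLC16A7, a monocarboxylate transporter (-2.75), TMEM47, a membrane protein of cell junctions (-2.65), ABCA8, a lipid transporter (-2.18), and PRICKLE1, a planar cell polarity protein (-2.0). These 5 genes were lower in every low P library than in any high P library, and kept their calls with each library left out (adjusted p between 0.0015 and 0.00787 over all libraries). TCN1, a vitamin B12 binding protein, fell by 2.85 (SE 0.59, adjusted p = 0.0405) and lost its call whichever library was left out (adjusted p up to 0.0839). CD24, a mucin-like surface protein often used to sort tumour cells, had 338, 299, 589 and 507 CPM in low P against 985, 1078, 1134 and 1105 CPM in high P (-1.36, SE 0.15, adjusted p = 0.00719). The high P libraries were close to each other in CD24, and every low P library was below them.

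Interferon-stimulated genes, which act in antiviral defence, were among those lower in low P: 11 of 50 tested members were called lower (22%, against 2.24% of all genes) and 0 higher. The list median was -0.49, with 84% of members below 0 against 51.8% of all genes. The pair medians were -0.73 for AXL shRNA and -0.53 for control shRNA, against -0.20 for TP-0903 and -0.08 for control cells. LGALS3BP, a secreted galectin ligand, had 325, 157, 120 and 97.7 CPM in low P and 602, 285, 210 and 148 CPM in high P (log2 fold change -0.79, SE 0.08, adjusted p = 0.0057). It differed between treatments more than between P levels, so that the groups overlapped, but it was lower in low P in each pair. IFI44 fell by 2.78 (SE 0.32, adjusted p = 0.00738), with 0.0293 to 0.679 CPM in low P libraries and 0.339 to 4.32 CPM in high P libraries. GBP1, an interferon-induced GTPase, fell by 1.80 (SE 0.32, adjusted p = 0.0255), with 0.180 to 2.43 CPM in low P and 1.00 to 10.8 CPM in high P. ISG15, a ubiquitin-like modifier, fell by 0.57, and the membrane antiviral factors IFITM2 and IFITM3 fell by 1.05 and 1.10. LGALS3BP and IFI44 kept their calls with each library left out, and GBP1 lost it without a control shRNA, control or TP-0903 library (adjusted p up to 0.123). The count of 11 was 2 without a library of the control shRNA or TP-0903 pair, 4 without one of the control pair and 5 without one of the AXL shRNA pair, while the list median stayed between -0.59 and -0.35.

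MHC class I and peptide loading genes present intracellular peptides to T cells, and 8 of 26 were called lower (30.8%, against 2.24% of all genes), 0 higher, with a median of -0.28 and 88.5% of members below 0. B2M, the light chain of every class I molecule, had 306, 174, 286 and 205 CPM in low P and 465, 294, 364 and 257 CPM in high P (-0.51, SE 0.09, adjusted p = 0.0297). NLRC5, the transcriptional activator of class I genes, fell by 0.71 (SE 0.11, adjusted p = 0.017), and PSMB8, a subunit of the immunoproteasome, by 0.63 (SE 0.10, adjusted p = 0.018). HLA-B, TAP2, TAPBP, TAPBPL and PSMB10 were the other members called lower, between -0.87 and -0.39. HLA-B has close relatives among which reads can be split. The median stayed between -0.36 and -0.24 with any library left out, but the count was 0 without a library of the control shRNA or TP-0903 pair, 2 without one of the control pair and 4 without one of the AXL shRNA pair. Of 29 fibrinogen, acute phase and complement genes 3 were called lower (10.3%, against 2.24% of all genes) and 0 higher. That list as a whole was not lower, with a median of -0.03 and 51.7% of members below 0, against 51.8% of all genes. Its pair medians went both ways, at -0.88 (AXL shRNA) and -0.71 (control shRNA) against 0.77 (TP-0903) and 0.58 (control). The complement component C3 fell by 1.29 (SE 0.15, adjusted p = 0.00787), with 344, 152, 132 and 144 CPM in low P and 823, 519, 338 and 245 CPM in high P. CD55, which shields cells from complement, fell by 1.26 (SE 0.17, adjusted p = 0.0117). C3 kept its call with each library left out, and CD55 lost it without a library of the control shRNA or TP-0903 pair (adjusted p up to 0.0652). C4BPB, a chain of the complement inhibitor C4-binding protein, fell by 1.92 (SE 0.32, adjusted p = 0.0224), a call lost without a library of any pair but AXL shRNA (adjusted p up to 0.0926). Its level was low, at 0.180 to 1.29 CPM in low P and 1.57 to 4.78 CPM in high P. Of 40 NF-kB subunits, targets and chemokines edgeR called 0, with 9 at an unadjusted p under 0.05, and DESeq2 called 1.

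**Figure D4:**
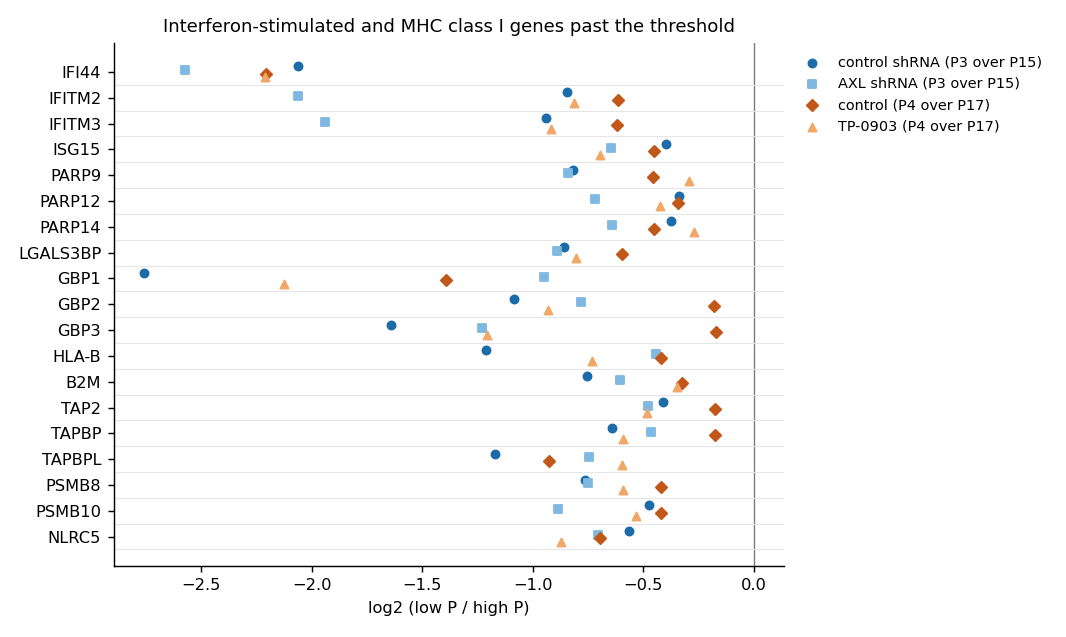
Log2 ratio of low P over high P in each treatment pair for the 11 interferon-stimulated (top) and 8 MHC class I (bottom) genes called lower. Every point lies below 0. The AXL shRNA pair is the lowest for IFITM2 (-2.06) and IFITM3 (-1.94).

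Matrix and adhesion genes changed in part. Of 34 matricellular and matrix crosslinking genes, 6 were called lower and 1 higher (17.6% and 2.94%, against 2.24% and 2.68% of all genes), with a median of -0.12. The count of 6 was 1 without a control shRNA library, 2 without a control or TP-0903 library and 8 without an AXL shRNA library. FBN2, the microfibril protein fibrillin 2, had 124, 96.0, 241 and 158 CPM in low P and 252, 187, 388 and 352 CPM in high P (-0.96, SE 0.09, adjusted p = 0.00516), lower in low P in each pair. TNC, tenascin C, fell by 2.71 (SE 0.44, adjusted p = 0.0193), LTBP3, which tethers latent TGF-beta, by 0.59 (SE 0.08, adjusted p = 0.0113), and MFAP5 by 2.96. The 1 called higher was FN1, on chromosome 2. The collagens COL12A1 and COL11A1 fell by 0.86 and 0.93, while COL3A1, on chromosome 2, rose by 0.83 (23 tested). Among integrin and laminin chains (29 tested), LAMA3 rose by 1.10 (SE 0.16, adjusted p = 0.0151), and ITGB4, whose protein binds the laminin that LAMA3 is part of, fell by 0.89 (SE 0.14, adjusted p = 0.0168). LAMA4 fell by 1.91 (SE 0.32, adjusted p = 0.0212). FBN2 and COL12A1 kept their calls with each library left out. TNC, LTBP3, COL11A1, ITGB4 and LAMA4 lost theirs without a control shRNA library (adjusted p up to 0.105 among these). TNC, COL11A1 and LAMA4 also lost them without a control library (up to 0.0789), and LTBP3, ITGB4 and LAMA4 without a TP-0903 library (up to 0.088). COL3A1 lost its call without a library of any pair (up to 0.0665) and LAMA3 without a TP-0903 library (0.0556).

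Called junction genes were all lower in low P, and called mesenchymal genes went both ways. Of 36 epithelial junction genes 3 were called lower (8.33%, against 2.24% of all genes) and 0 higher. Among them PKP2, a desmosome protein, fell by 1.26 (SE 0.09, adjusted p = 0.00253) and CDH3, P-cadherin, by 1.41 (SE 0.23, adjusted p = 0.0191). CDH3 was at a low level, with 0.120 to 1.84 CPM in low P and 0.431 to 4.88 CPM in high P. Of 25 mesenchymal regulators and markers 3 were called higher (12%, against 2.68% of all genes) and 4 lower (16%, against 2.24%). The transcription factor gene TCF4 had 6.55, 7.18, 7.24 and 7.71 CPM in low P and 14.9, 20.05, 19.1 and 26.9 CPM in high P (-1.47, SE 0.12, adjusted p = 0.00416), without overlap. The cadherins CDH6 and CDH11 fell by 1.21 (SE 0.13, adjusted p = 0.00689) and 3.94 (SE 0.66, adjusted p = 0.0221). CDH11 stood at no more than 0.243 CPM in any low P library and at 0.785 to 2.62 CPM in high P libraries. ZEB2 and TWIST2, repressors of epithelial genes that both lie on chromosome 2, rose by 1.17 and 0.72, and THY1 rose by 0.86 (SE 0.17, adjusted p = 0.0362). PKP2, TCF4 and CDH6 kept their calls with each library left out. CDH3 and CDH11 lost theirs without a library of the control shRNA, control or TP-0903 pair (adjusted p up to 0.108), and THY1 without one of any pair but control (0.142). The hair keratin genes KRT81 and KRT86, near-identical copies whose reads can be misassigned, rose by 0.94 and 0.92, and KRT19 fell by 0.69 (SE 0.14, adjusted p = 0.0373), calls that were all lost without a library of the control shRNA or control pair (adjusted p up to 0.146). KRT19 also lost its call without a TP-0903 library and KRT86 without an AXL shRNA library.

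Receptor kinases other than AXL, with their ligands, were called lower in 6 of 46 cases (13%, against 2.24% of all genes) and higher in 0, with a median of -0.12. With 1 library left out the count of 6 ranged from 2, without a control shRNA library or control P17, to 9, without an AXL shRNA library, and was 3 without a TP-0903 library or control P4. FGFR2, a fibroblast growth factor receptor, had 0.606, 0.329, 0.293 and 0.273 CPM in low P and 5.83, 4.09, 1.36 and 2.49 CPM in high P (-3.11, SE 0.27, adjusted p = 0.00427). NTRK2, the receptor of brain-derived neurotrophic factor, had 0.485, 0.120, 0.0879 and 0.198 CPM in low P and 2.63, 4.18, 0.988 and 1.51 CPM in high P (-3.32, SE 0.43, adjusted p = 0.00994). Both were without overlap, at low levels, and kept their calls with each library left out. KITLG, the ligand of KIT, fell by 0.70 (SE 0.10, adjusted p = 0.0136), a call lost without a library of the control shRNA or control pair (adjusted p up to 0.0815). In the TGF-beta list 1 of 43 was called higher, ID2 (2.33%, near the 2.68% of all genes), and 2 lower (4.65%, against 2.24%). The list median was -0.01, as for all genes. The ligand gene BMP2 fell by 1.92 (SE 0.21, adjusted p = 0.00724) and FSTL3, which binds activins, by 0.49 (SE 0.08, adjusted p = 0.0193). Of 35 JAK, STAT and SOCS genes 1 was called higher (2.86%, near the share of all genes) and 2 lower (5.71%, against 2.24%). The cytokine IL15 fell by 0.75 (SE 0.13, adjusted p = 0.0245) and the receptor IL7R by 1.48 (SE 0.31, adjusted p = 0.0425), while SOCS5, on chromosome 2, rose by 0.42 (SE 0.08, adjusted p = 0.0376). IL7R had 12.2 CPM in AXL shRNA P3 and 21.4 CPM in AXL shRNA P15, but no more than 1.23 CPM in any other library. BMP2 kept its call with each library left out, and FSTL3, IL15, IL7R and SOCS5 lost theirs without a control shRNA library (adjusted p up to 0.157). FSTL3, IL7R and SOCS5 also lost them without a TP-0903 library (up to 0.151), IL15 and IL7R without a control library (up to 0.0964), and IL15 and SOCS5 without an AXL shRNA library (up to 0.0937).

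Some targets of 2 stress programmes were higher in low P. ATF4 drives amino acid and one-carbon synthesis in the integrated stress response, and NRF2, released from mutant KEAP1 in A549, drives glutathione and thioredoxin genes. Of 48 ATF4 and integrated stress response genes, 5 were called higher (10.4%, against 2.68% of all genes) and 0 lower, with a median of 0.27 and pair medians of 0.12 (AXL shRNA), 0.19 (control shRNA), 0.24 (TP-0903) and 0.55 (control). PHGDH, the first enzyme of serine synthesis, had 12.6, 158, 13.0 and 92.6 CPM in low P and 7.15, 107, 8.30 and 61.2 CPM in high P (0.65, SE 0.07, adjusted p = 0.00738). The AXL shRNA and TP-0903 libraries were far below their controls at both P levels, and low P was above high P within each treatment. ALDH1L2, a mitochondrial folate enzyme, rose by 0.69 (SE 0.10, adjusted p = 0.0151) and CBS, which makes cystathionine, by 0.62 (SE 0.09, adjusted p = 0.0164). Of 40 NRF2 targets 4 were called higher (10%) and 0 lower, with a median of 0.23 and 12.5% of members below 0. The pair medians were 0.02 (AXL shRNA) and 0.12 (control shRNA) in hairpin libraries, and 0.43 (TP-0903) and 0.46 (control) in the others. SRXN1, sulfiredoxin, had 430, 539, 319 and 397 CPM in low P and 274, 325, 193 and 252 CPM in high P (0.69, SE 0.07, adjusted p = 0.00588), and GCLC, which limits glutathione synthesis, rose by 0.63 (SE 0.11, adjusted p = 0.0269). PHGDH and SRXN1 kept their calls with each library left out, and ALDH1L2, CBS and GCLC lost theirs without a library of any pair but AXL shRNA (adjusted p up to 0.117). Without a library of the control shRNA pair each list had 1 called member. The ATF4 list had 1 without one of the control or TP-0903 pair and 7 without one of the AXL shRNA pair, and the NRF2 list had 2 and 5 to 6. The list medians stayed between 0.15 and 0.34 (ATF4) and between 0.14 and 0.35 (NRF2).

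Lysosomal, transporter and other lists held single changes. Of 41 lysosome and autophagy genes 4 were called lower (9.76%, against 2.24% of all genes) and 1 higher (2.44%, near the 2.68% of all genes). MITF, a transcription factor of the family that drives lysosomal genes, had 59.9, 24.2, 51.7 and 33.3 CPM in low P and 93.6, 51.4, 76.2 and 56.9 CPM in high P (-0.76, SE 0.10, adjusted p = 0.00994). The protease genes CTSB and CTSL moved apart, CTSB falling by 0.78 (SE 0.12, adjusted p = 0.0168) and CTSL rising by 0.75 (SE 0.12, adjusted p = 0.0191). Of 31 ABC transporters, ABCB1, the multidrug exporter, fell by 3.19 (SE 0.39, adjusted p = 0.00881), with 0.994, 0.0299, 0.0879 and 0.0744 CPM in low P and 7.52, 1.35, 0.432 and 0.703 CPM in high P. ABCA3, which loads lung surfactant lipids, fell by 0.60 (SE 0.08, adjusted p = 0.0122). Of the secreted factors of senescent cells (30 tested), IGFBP7 fell by 0.77 (SE 0.14) and IGFBP5, although on chromosome 2, by 0.94 (SE 0.19). The TNF receptor TNFRSF1A, in the same list, rose by 0.34 (SE 0.07). In the retinoic acid pathway (3 higher of 20 tested, 15% against 2.68% of all genes), RARB rose by 0.53 and CYP26B1, which lies on chromosome 2, by 0.85. Among stem cell markers (21 tested) LIN28B rose by 0.97 (SE 0.15, adjusted p = 0.0171). BCL2, an inhibitor of apoptosis, fell by 0.93 (SE 0.18, adjusted p = 0.034), and BIRC6, WDR12, POLR1A, POLR1B, RPL31, RPS7, COX5B and NDUFB3, all on chromosome 2, rose by 0.35 to 0.49. MITF and ABCB1 kept their calls with each library left out. CTSB lost its call without a library of the control shRNA or TP-0903 pair, ABCA3 without one of any pair but AXL shRNA, CTSL without one of the control or TP-0903 pair, and the others without one of at least 2 pairs (adjusted p up to 0.191). Of the X-linked cancer-testis genes, MAGEA6 and MAGEA3 fell by 1.69 and 1.4 and MAGEA12 rose by 1.97. They are close copies among which reads can be split, so their separate values are uncertain. MAGEA6 kept its call with each library left out, MAGEA3 lost it without a control shRNA or TP-0903 library (adjusted p up to 0.0848), and MAGEA12 without a library of any pair (up to 0.138).

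Of 63 lists with at least 5 tested members, 15 had no called member in edgeR's test. Of their 409 members, 61 had an unadjusted p under 0.05, and DESeq2 called 19. Among these were the G1/S and replication genes (49 tested, median -0.05), the G2/M and mitosis genes (48, -0.12), the immediate early genes, the contractile genes, the unfolded protein response and cholesterol and fatty acid synthesis. For G2/M genes the pair medians were 0.16 (AXL shRNA) and 0.07 (control shRNA) in hairpin libraries and -0.25 (TP-0903) and -0.49 (control) in the others.

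The series holds a hairpin experiment (AXL shRNA and control shRNA, P3 and P15) and a drug experiment (TP-0903 and control, P4 and P17), so it was tested whether the difference between low and high P was the same in both. It was not for 213 genes (1.21% of those tested), 46 higher (0.26%) and 167 lower (0.945%) in the hairpin pairs relative to the other pairs. In 155 of them the 2 experiments had opposite signs in all pairs. For 121, low P was lower in both hairpin pairs and higher in both others, and for 34 it was the reverse. The 167 included genes of liver-type secretion. The P numbers and the presence of a hairpin cannot be told apart here. Leaving out 1 library leaves its experiment a single pair, so that the spread between pairs then comes only from the other experiment. This moved the count of 213 widely. It was 22 without TP-0903 P17 but 171 without TP-0903 P4, 121 without control P17, 122 without control P4, 322 and 323 without AXL shRNA P15 and P3, and 750 and 685 without control shRNA P15 and P3.

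Fibrinogen, the clotting protein made chiefly by hepatocytes and also by lung epithelial cells in inflammation, is built from the products of FGA, FGB and FGG, which are neighbours on chromosome 4. FGA had 35.8 CPM (AXL shRNA) and 245 CPM (control shRNA) in P3 libraries against 64.7 and 383 CPM in P15 libraries, but 40.4 CPM (TP-0903) and 144 CPM (control) in P4 libraries against 7.50 and 23.7 CPM in P17 libraries. Low P was thus below high P in both hairpin pairs and above it in both others, by 2.42 (TP-0903) and 2.60 (control) on the log2 scale. The difference, hairpin minus drug experiment, was -3.27 (SE 0.16, adjusted p = 2.32e-04) for FGA, -3.74 (SE 0.21, adjusted p = 3.61e-04) for FGG and -3.33 (SE 0.24, adjusted p = 9.65e-04) for FGB, the last named after its values were seen. FGG had 38.0 and 127 CPM in P3 against 87.0 and 247 CPM in P15, and 27.0 and 81.5 CPM in P4 against 3.36 and 15.2 CPM in P17, the treatments in the same order. Of 29 fibrinogen, acute phase and complement genes 12 were called lower by this test and 0 higher, against 0.945% and 0.26% of all genes. Opposite signs in the experiments were seen in 8 of the 12, and in 155 of all 213 genes called by this test. The list's pair medians were -0.88 (AXL shRNA), -0.71 (control shRNA), 0.77 (TP-0903) and 0.58 (control). The copper carrier CP differed by -3.21 (SE 0.37, adjusted p = 0.0109) and was named after its values were seen.

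Since FGA, FGB and FGG moved together, the bases before their starts are shown with 2 motifs in capitals: GTTAAT, the core bound by the liver factor HNF1 (ATTAAC on the other strand), and CTGGGA, the core of the interleukin-6 element described in fibrinogen promoters (TCCCAG on the other strand). Sequences are from RefSeq (GRCh38.p14), 5′ to 3′ on the gene's own strand, and stop where the GENCODE 29 gene begins. FGB lies on the plus strand, at chr4:154562730-154562955, and FGA on the minus strand, at chr4:154590767-154590992.
FGB: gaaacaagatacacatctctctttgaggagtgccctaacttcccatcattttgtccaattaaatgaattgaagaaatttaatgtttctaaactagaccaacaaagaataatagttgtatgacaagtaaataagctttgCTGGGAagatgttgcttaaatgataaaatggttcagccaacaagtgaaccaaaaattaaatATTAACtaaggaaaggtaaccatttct
FGA: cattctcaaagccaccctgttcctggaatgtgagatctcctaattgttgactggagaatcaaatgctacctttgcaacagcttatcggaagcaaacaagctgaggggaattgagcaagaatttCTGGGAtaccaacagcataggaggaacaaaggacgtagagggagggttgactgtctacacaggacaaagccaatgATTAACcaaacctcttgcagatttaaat
Each of these holds 1 match to each motif, searched on both strands, and the matches do not overlap. The 250 bases before FGG lie inside the GENCODE gene and are not printed. They hold 2 matches to CTGGGA and 0 to GTTAAT. Of 35116 RefSeq promoters, 6.23% hold GTTAAT and 28.7% hold CTGGGA in the same 250 bases, and a match is a description of letters only.

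The other genes with the smallest p in the test between the experiments, HMGA2 aside, showed the same crossing. TM4SF4 and TM4SF20, which encode tetraspanin-like membrane proteins of liver and gut, differed by -2.61 (SE 0.15, adjusted p = 4.17e-04) and -2.71 (SE 0.18, adjusted p = 9.18e-04). TM4SF4 had 56.8 and 18.3 CPM in P3 (AXL shRNA and control shRNA) against 130 and 43.2 CPM in P15, and 23.5 and 37.8 CPM in P4 (TP-0903 and control) against 8.21 and 15.4 CPM in P17. RARRES1, a membrane protein induced by retinoids, differed by -2.15 (SE 0.15, adjusted p = 9.65e-04). These 3 and both fibrinogen genes named by p kept their calls with each library left out. In such fits the spread between pairs comes only from the experiment that keeps all its libraries. In the opposite direction, KCNMA1, the large-conductance potassium channel, differed by 2.0 (SE 0.14, adjusted p = 9.65e-04), with low P above high P by 1.30 and 1.23 in the hairpin pairs and below it by 0.77 and 0.70 in the others on the log2 scale. RFLNB, an actin regulator that binds filamin, differed by 2.07 (SE 0.19), CDCP1, a transmembrane substrate of SRC kinases, by 3.0 (SE 0.35), HMGA2, an architectural chromatin protein, by 1.81 (SE 0.21), and SMTN, a smooth muscle actin-binding protein, by 1.38 (SE 0.15), with adjusted p between 0.00458 and 0.012. HMGA2 did not cross, with low P above high P in the hairpin pairs (2.0 and 1.47) and near it in the others (-0.14 and 0.06). HMGA2 and SMTN lost their calls without a TP-0903 library (adjusted p up to 0.127), and the others kept theirs.

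**Figure D5:**
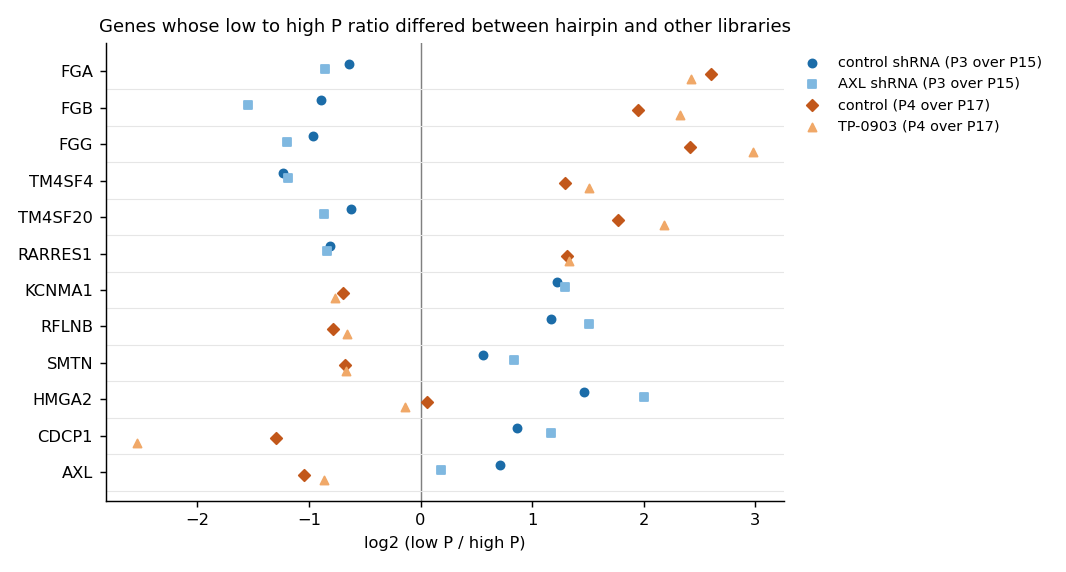
Log2 ratio of low P over high P in each treatment pair for FGA, FGB, FGG, 8 other genes and AXL. The 8 were among those with the smallest p in each direction of the test between the experiments. For the upper 6 genes both hairpin pairs lie below 0 and both other pairs above 0, and for KCNMA1, RFLNB, SMTN, CDCP1 and AXL it is the reverse.

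Some secreted airway proteins and junction genes also differed between the experiments. Of 15 mucins and secreted airway proteins 6 were called lower by the test between the experiments (against 0.945% of all genes) and 0 higher, among them AGR2, a disulfide isomerase for mucins (-1.80, SE 0.16, adjusted p = 0.00458), and the mucin MUC5AC (-1.71, SE 0.29, adjusted p = 0.0376). Of 36 epithelial junction genes 3 were called lower, again against 0.945% of all genes: CDH1, E-cadherin (-1.35, SE 0.18, adjusted p = 0.0152), the claudin CLDN2 (-2.08, SE 0.21, adjusted p = 0.00725) and the transcription factor EHF (-1.5, SE 0.19, adjusted p = 0.0143). CDH1 and EHF did not cross: low P was lower in both hairpin pairs and near high P in the others. CDH1 had 76.6 and 53.6 CPM in P3 (AXL shRNA and control shRNA) against 220 and 122 CPM in P15, and 40.0 and 47.5 CPM in P4 (TP-0903 and control) against 45.1 and 42.4 CPM in P17. Of 40 NRF2 targets 4 were called lower (10%, against 0.945% of all genes), including GPX2, a glutathione peroxidase (-1.87, SE 0.18, adjusted p = 0.00694), and AKR1C1, an aldo-keto reductase (-1.39, SE 0.19, adjusted p = 0.0177). Of 48 G2/M and mitosis genes 3 were called higher (against 0.26% of all genes) and 0 lower. All 3 had opposite signs in the experiments, as did 155 of all 213 genes called by this test. The list's median difference was 0.54, against 0.02 over all genes. Also on the higher side, the collagen VI chains COL6A1 and COL6A2 differed by 1.09 and 1.76. AXL differed by 1.41 (SE 0.19, adjusted p = 0.0177), a call lost without a TP-0903 library (adjusted p up to 0.147). The genes of this paragraph other than AXL were named after their values were seen.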

How the data were processed

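RNA was sequenced from 8 A549 cultures with Nextera XT libraries, for which no strand is stated. Per the submitters' processing notes, STAR 2.5.3a, RSEM and GRCh38 were used by the authors for alignment and quantification. The sources used here give neither the version of RSEM nor its gene models. Expected counts as deposited (estimated reads per gene, not normalized by the authors) were rounded to whole numbers. The deposited TPM values, scaled by the authors' RSEM run within each library, and the deposited effective lengths served alternatives only. Positions were those of GENCODE 29, which held 58039 of the 58302 gene IDs.

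Genes were filtered with filterByExpr and fitted by edgeR 4.0.16 (R 4.3.3; quasi-likelihood, TMM, Benjamini-Hochberg adjustment over 17676 genes) with terms for treatment and P level. The treatment term pairs each low P library with the high P library of the same treatment. A further fit added the difference of the P effect between hairpin and other libraries. The SE was derived from the log2 fold change and its F statistic. Levels in CPM use TMM-scaled totals, except sums of cell type markers. Totals of 30067011 to 44217023 counts limit precision at low levels, as does having 1 library per treatment and P level. The biological coefficient of variation was 15.2%. Both fits were tested on simulated data with known changes.

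Named were AXL, and, of called protein-coding genes that averaged 5 CPM or more with all 4 pairs in the same direction, the 12 that rose most and the 12 that fell most, for each list with 3 or more called members the 3 with the smallest p, and 5 genes in each direction of that further fit by p. Any other gene was named after its values were seen, mostly as a called member of a list. The members and gene lists were chosen with earlier results of these data known. Alternatives were RLE scaling, no count filter, a minimum mean of 5 CPM, effective lengths, limma-voom (limma 3.58.1), limma on log2(TPM + 1) and log2(TPM + 0.1), DESeq2 1.42.0, no treatment term, a fold change of 1.5, each experiment alone and each library left out. A fit without chromosome 2 genes was added after seeing the data. Some genes that the rule names are not reported here.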

Additional observations from a re-analysis of the deposited data

Results flagged for a closer look

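In 111 sets of 4 pair values checked, 3 had 1 pair far from the others, where chance gives about 1 in 20. SOCS5 differed by 0.156 (log2) in the control pair and by 0.474 to 0.522 in the other 3. RARB differed by 0.852 in the AXL shRNA pair and by 0.385 to 0.451 in the other 3. The library total of the AXL shRNA pair was 8188980 counts higher in low P than in high P, against 1508910 to 2649960 in the other pairs.

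For 15 named genes the difference between low and high P was not the same in hairpin and other libraries by edgeR's test. Hairpin minus other, it was -3.74 for FGG, -3.27 for FGA, -2.71 for TM4SF20, -2.61 for TM4SF4, -2.15 for RARRES1, 2.999 for CDCP1, 2.07 for RFLNB, 2.003 for KCNMA1, 1.81 for HMGA2, 1.38 for SMTN and 1.41 for AXL. For CEACAM5 it was -2.44, for CES1 -1.23, for SLCO2B1 -1.26 and for CA8 1.69. In these 4 genes low P lay on the same side of high P in all 4 pairs, so the size differed and not the direction. FGG, FGA, TM4SF20, TM4SF4, RARRES1, CDCP1, RFLNB, KCNMA1, HMGA2 and SMTN were named for their small p in this same test. That they passed it followed from how they were picked and is no separate result. Only AXL, CES1, SLCO2B1, CA8 and CEACAM5 were named for other reasons. Of all tested genes, 1.21% were called by this test. The differences of AXL, CA8, HMGA2, SMTN, SLCO2B1 and CES1 did not pass the threshold without a TP-0903 library (adjusted p up to 0.202), and those of CES1, SLCO2B1 and CEACAM5 did not without a control library (up to 0.194).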

How the results depend on the processing

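Against the 869 genes called, 1544 were called with no count filter, 1498 by DESeq2, 575 with effective lengths, 564 in hairpin libraries alone, 274 on log2(TPM + 0.1), 126 on log2(TPM + 1), 76 against a fold of 1.5, 2 without the treatment term and 380 without chromosome 2 genes (120 higher and 260 lower). Leaving out 1 library gave 113 to 689. The count stayed within 1.5 times with RLE scaling, limma-voom, a mean of at least 5 CPM and the other libraries alone. The share called higher, 54.4%, was 33.0% in hairpin libraries alone, 28.9% against a fold of 1.5, 31.6% without chromosome 2 genes and 40.5% to 47.8% with 1 library left out. Against the 213 genes that differed between the experiments, 1113 were called with no filter, 462 by DESeq2, 66 with effective lengths and 13 on log2(TPM + 1), and 22 to 750 with 1 library left out.

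The median of chromosome 2 genes was 0.33 on log2(TPM + 1), where a constant is added to each value, and otherwise stayed within 1 SD of 0.37. AXL, which was not called, changed sign in hairpin libraries alone (0.46) and without a control library, where it was 0.0146 and 0.0148 in a range of -0.59 to 0.0148 with 1 library left out. In the other libraries alone it was called, at -0.95 (adjusted p = 0.00405). Of 94 called named genes 31 kept their calls with each library left out in turn. None changed direction in any setting, but these genes had all 4 pairs in the same direction, so a reversal was hardly possible. DESeq2 kept 94, limma-voom 93, effective lengths 78, log2(TPM + 0.1) 53, log2(TPM + 1) 29 and the fit without the treatment term 2. Of 1323 list medians under alternatives, 1256 moved by less than 1 SD of the pairs. The causes were not tested. The pairing is the treatment term itself, so no separate paired fit was made. Depth limits the precision of genes at low CPM.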

Other observations

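Chromosome 12 was the only other chromosome whose median over genes with at least 5 CPM stood above 0.01. Its median log2 fold change was 0.10 over 613 genes, of which 76.2% lay above 0, 21 were called higher and 7 lower. The pair medians were 0.14 for AXL shRNA and for control shRNA, 0.08 for TP-0903 and 0.06 for control cells. Of 12 stretches of 10 megabases with at least 20 genes, 10 had a median above 0 in all 4 pairs, and their medians ran from 0.05 to 0.15. The pattern was picked out after the values were seen.

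Gene groups not described above held 1 or 2 called genes each, named after their values were seen, against 2.68% called higher and 2.24% called lower among all genes. H19, an imprinted long RNA, rose by 1.97 (log2, SE 0.23, edgeR adjusted p = 0.00734) in low P, and NDN, a growth suppressor also in the imprinted list, by 2.62 (SE 0.50, adjusted p = 0.0314), 2 of 21 tested. Among ERK feedback genes, the phosphatase gene DUSP5 rose by 0.74 and the transcription factor gene ETV4 by 0.61, 2 of 22 tested. Among WNT genes, the ligand gene WNT5A fell by 2.84 (SE 0.31, adjusted p = 0.00711) and the receptor gene TNFRSF19 fell by 1.05, 2 of 36. LFNG, which adds sugars to Notch receptors, fell by 0.92 (SE 0.16, adjusted p = 0.026), while NOTCH3 rose, 2 of 25 called in the Notch list. The glucose transporter gene SLC2A1 fell by 0.37 (SE 0.08, adjusted p = 0.0462), the 1 called gene of 42 in the glycolysis and hypoxia list, a share (2.38%) near that of all genes.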
